A study of Mus musculus with 18 samples.

Results

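In haematopoietic stem cells (HSCs) from mice in which Mettl3 had been deleted, poly(A)+ RNA was passed over an antibody against N6-methyladenosine (m6A), and the RNA the antibody held was compared, gene by gene, with the RNA it did not hold. The comparison covers 6295 of the 23038 genes in the deposited tables, those with a mean of at least 10 RPKM (reads per kilobase of transcript, scaled to a library of 1000000 reads) over the 6 columns of both genotypes. For each gene the ratio is log2((m6A-tagged + 1)/(unbound + 1)) of the RPKM values, and a gene is called higher or lower when the ratio is at least 2-fold. The Mettl3-deficient mice were Mx1-cre Mettl3fl/fl animals on a C57BL/6 background, in which the interferon-inducible Mx1 promoter drives Cre in blood cells and in other tissues that respond to interferon. The comparison animals were wild type, and both genotypes had received 5 injections of 10 µg pIpC, the inducer of Mx1-cre, and were analysed 10 days after the last one. From each genotype 3000 Lineage- Sca1+ cKit+ CD150+ CD48- cells were sorted per sample, and 3 samples each of input, unbound and m6A-tagged RNA were sequenced. The unbound RNA is the pooled washes, and the m6A-tagged RNA is what 20 mM m6A monophosphate released from 1.25 µg of antibody.

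METTL3 is the catalytic subunit of the nuclear complex that writes most m6A in messenger RNA. The mark is read by proteins with a YTH domain: YTHDC1 acts in the nucleus, and YTHDF1, YTHDF2 and YTHDF3 act in the cytoplasm, where the mark is tied to translation and decay. It is found above all in long internal exons and near stop codons, and transcripts of many regulators, MYC among them, carry it in blood stem cells, whereas most messages of ribosomal proteins carry little of it. A minor share is written by other enzymes, among them METTL16, which methylates U6 small nuclear RNA and hairpins of the Mat2a message. The comparison here asks how the transcripts of HSCs that lack the main writer fell between the RNA held and not held by the antibody.

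Each deposited column is the mean of 3 libraries, so a ratio has no replicate error, and no gene or group below carries a test or a p-value. The depth implied by the values, in units of 1000000 reads, was 12.2, 13.9 and 27.3 for the unbound and 25.9, 30.6 and 33.6 for the m6A-tagged libraries of the Mettl3-deficient mice. Their input libraries had 9.42, 22.1 and 30.1 in the same units. In bulk RNA, fewer cells of a type and less RNA per cell cannot be told apart. Mettl3 itself (chromosome 14, 52294841 to 52308741, GRCm38.p6) read 19.6 RPKM in the input, 11.2 in the unbound and 17.4 in the m6A-tagged RNA of the Mettl3-deficient mice, against 36.4, 33.2 and 36.1 RPKM in wild type. Cre removes part of the gene and the rest can still give reads, so these values do not measure the share of cells that had lost it. Of 10 HSC markers 8 passed the minimum of 10 RPKM, and the summed level of the 10 was 1127 RPKM in the input, 1254 in the unbound and 979 in the m6A-tagged column. Cd48, against which the cells were sorted, and Flt3, a gene of later progenitors, summed to 20.3, 5.15 and 17.2 RPKM. Among 9 granulocyte and monocyte markers, Lyz2 stood at 373 and S100a8 at 233 RPKM in the input, and the sum of the 9 was 927, 1400 and 1015 RPKM in the same order. Sums in the same order were 266, 446 and 328 RPKM for 6 megakaryocyte markers and 84.6, 142 and 96.9 for 6 erythroid ones. They were 55, 231 and 67.6 RPKM for 7 T and NK cell markers, of which Nkg7 gave 46.2, 223 and 53.3, while Cd3e and Cd8a were at or below 0.0442. For 6 B cell markers they were 91.5, 92.8 and 139 RPKM, nearly all Cd79b, with Ms4a1 at or below 0.0142. For 6 endothelial and stromal markers they were 14.3, 11.9 and 16.6 RPKM, nearly all Emcn, with Cdh5, Cxcl12 and Lepr at or below 0.0159. The part of these cells in the ratios was not tested.

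Many transcripts were unequal between the columns, 3183 of the 6295 genes (50.6%) being at least 2-fold apart. In the Mettl3-deficient RNA 2122 genes (33.7%) were 2-fold higher in the m6A-tagged than in the unbound column and 1061 (16.9%) were 2-fold lower, and these shares are the background for every group below. Differences were often large: 866 genes were at least 4-fold and 217 at least 8-fold higher, and 257 and 34 genes were lower by as much. The median ratio was 0.33 on the log2 scale, with a standard deviation across genes of 1.41. The minimum level sets the balance of the calls: at a minimum of 50 RPKM 400 of 2411 genes were higher and 752 lower, so that most calls were then lower. With 415 genes the minimum was met through the wild-type columns, their mean over the Mettl3-deficient ones being under 10 RPKM, and 247 of these were higher and 20 lower. How far the columns are scaled moves all genes together. The median becomes 0.05 under median-ratio scaling, -0.81 under upper-quartile scaling over the whole table and 0.49 when the quartile is taken over the compared genes, so that 54.6%, 22.4% and 72.2% of the called genes are then higher, against 66.7% as deposited. A group's place relative to the median of all genes shifts little under scaling, and each group is therefore given beside the 0.33.

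**Figure D1:**
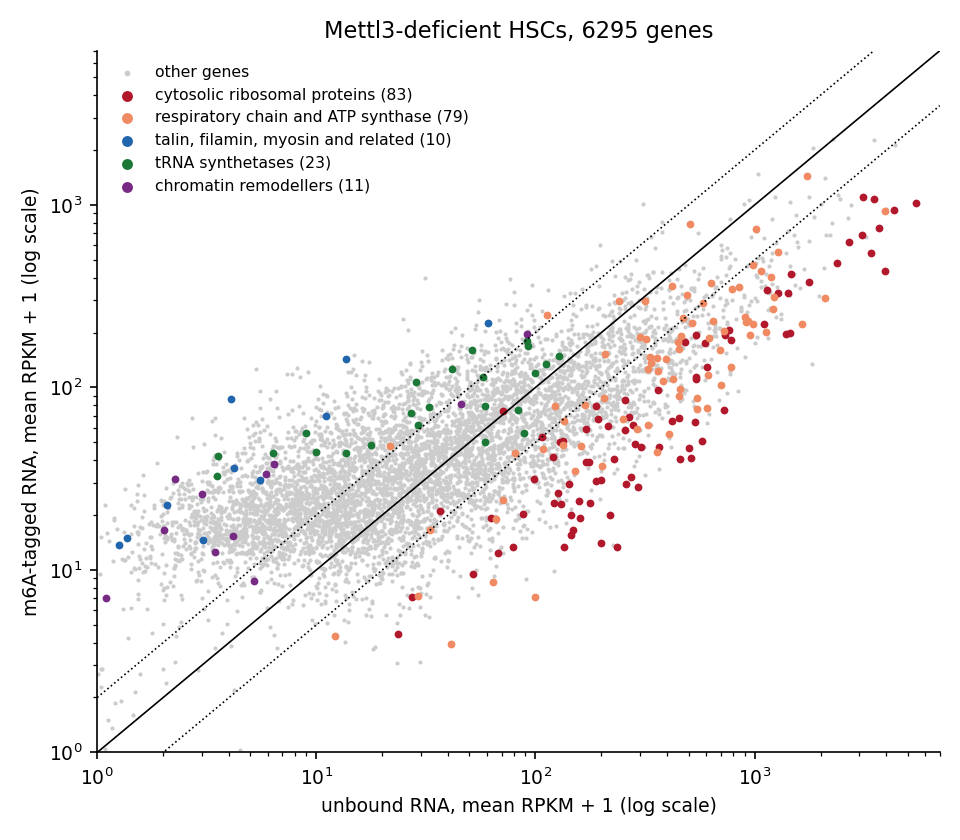
Mean RPKM + 1 of 6295 genes in the unbound (x) and m6A-tagged (y) RNA of Mettl3-deficient HSCs, both on log axes; each point is 1 gene, the solid line is equality and the dotted lines are 2-fold. The 83 cytosolic ribosomal protein genes lie almost wholly below the lower dotted line, and all 10 talin, filamin, myosin and related genes lie above the upper one.

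The input column shows which of the 2 fractions lay further from it. The m6A-tagged RNA resembled the input: 86 genes (1.37%) were 2-fold higher and 91 (1.45%) 2-fold lower than in the input, and the ratio had a standard deviation of 0.44 across genes. The unbound RNA did not, with 1162 genes (18.5%) 2-fold higher and 1854 (29.5%) 2-fold lower than the input and a standard deviation of 1.35. In wild type the standard deviations were 0.60 for m6A-tagged over input and 1.16 for unbound over input. Of the 2122 genes that were higher in the m6A-tagged RNA, 1731 (81.6%) were 2-fold under the input in the unbound column and 53 (2.5%) were 2-fold over it in the m6A-tagged column. Of the 1061 lower genes, 896 (84.4%) were 2-fold over the input in the unbound column and 77 (7.26%) were 2-fold under it in the m6A-tagged column. These 3 ratios share columns and are given side by side, not as independent evidence. Most genes called higher were thus messages scarce in the unbound RNA, with a median of 28 RPKM in the m6A-tagged and 6.93 RPKM in the unbound column, and most genes called lower were messages in surplus there.

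**Figure D2:**
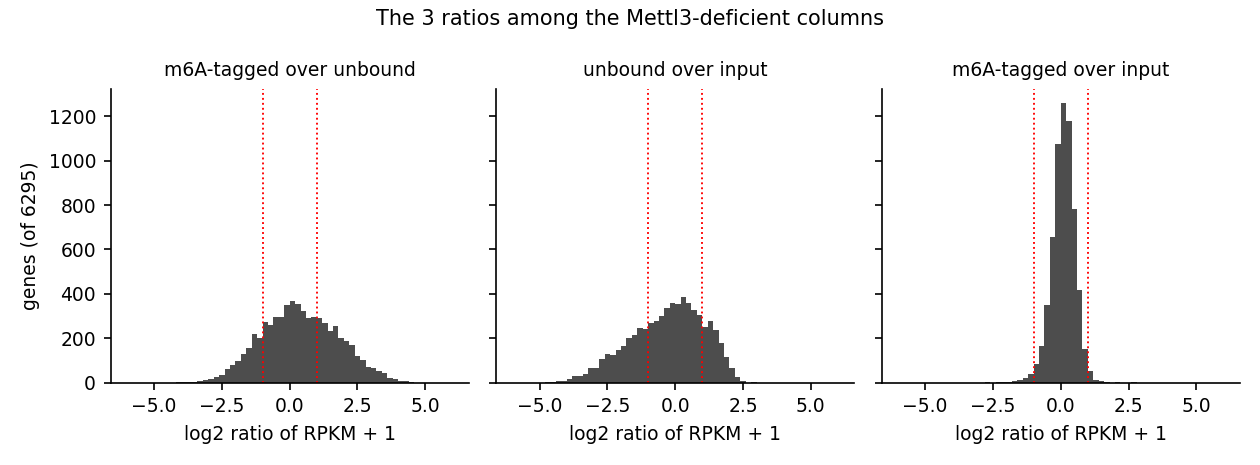
Histograms over 6295 genes of the 3 log2 ratios of RPKM + 1 among the Mettl3-deficient columns, in bins of equal width; the y axis counts genes and the red dotted lines mark 2-fold. Both ratios that contain the unbound column are broad (standard deviations 1.41 and 1.35), and the ratio of m6A-tagged to input RNA is narrow (0.44).

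Taok3, which encodes a kinase of the stress-activated MAPK pathways, had the highest ratio with 1 RPKM added (chromosome 5, 117120111 to 117275101, GRCm38.p6). It read 71 RPKM in the input, 1.71 in the unbound and 66.6 in the m6A-tagged RNA. Mat2a, the gene of the enzyme that makes S-adenosylmethionine and thus the methyl donor of m6A, read 159, 4.33 and 126 RPKM in the same columns. Both were close to the input in the m6A-tagged RNA and far below it in the unbound RNA. At the other end stood Rps16, a protein of the small ribosomal subunit (chromosome 7, 28350689 to 28352698), with 88.8 RPKM in the input, 234 in the unbound and 12.4 in the m6A-tagged RNA. Usmg5, now named Atp5md, a small membrane subunit of ATP synthase, read 17.6, 98.9 and 6.12 RPKM. For both the departure from the input ran in both fractions. Among the other genes of the top 15 were Sart3 (ratio 4.10), a splicing factor that recycles U6 particles, Mll5 (4.11), now Kmt2e, a SET-domain chromatin protein, Ptpn7 (4.11), a phosphatase of blood cells, Mlxip (4.25), a glucose-responsive transcription factor, and Frrs1 (4.01). Among the other genes of the lowest 15 were the ribosomal protein genes Rpl39 (-3.38), the copy Rpl34-ps1 (-3.76), whose reads cannot be told apart from those of its parent gene, and Atp5g2 (-3.38), a subunit of the ATP synthase rotor. Folds against very low unbound values rest on the 1 RPKM added: with 0.1 RPKM added Rbm28, which read 0.086 RPKM there, was first, its ratio going from 4.39 to 6.88, and Taok3 ranked 18 at 5.21. Sin3a went from 3.84 to 6.16 and Mll5 from 4.11 to 5.35.

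Genes of the m6A system were counted first. Of 21 writers, erasers and readers, 8 passed the minimum, 5 of them were 2-fold higher in the m6A-tagged RNA and none was lower, with a median of 1.12 that turns to -0.018 under upper-quartile scaling. The nuclear reader Ythdc1 read 40.7 RPKM in the input, 2.16 in the unbound and 34 in the m6A-tagged RNA. Its ratio of 3.47 was the highest of the 8. Ythdf2, which recruits the deadenylase machinery to marked messages, had a ratio of 1.81, Ythdf3 1.30 and Ythdf1 1.13. Hnrnpa2b1, a nuclear RNA-binding protein, stood at 1.10, a value that turns to -0.070 under upper-quartile scaling. Mettl16 (0.98), Mettl3 (0.58) and Hnrnpc (0.09) were under 2-fold.

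In the translation machinery the balance differed by the kind of protein. Messages of the ribosome itself were on the unbound side, and only 1 had a ratio above 0. None of the 83 genes for cytosolic ribosomal proteins was higher and 80 were lower, at a median ratio of -2.27. Summed over the 83 genes the level was 26203 RPKM in the input, 64562 in the unbound and 13688 in the m6A-tagged RNA. The least divided were Rpl5 (-0.81), which with other proteins and 5S RNA binds MDM2, Rpl12 (-0.99) and Rps4y2 (0.07), a near copy of the X-linked gene whose reads may be shared with it. Eif5a, the hypusine-carrying elongation factor, had a ratio of -2.27, and Gnb2l1, now Rack1, a scaffold on the small subunit, -2.17.

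Genes of tRNA charging and of ribosome building had more members higher than lower, whereas factors of initiation and elongation had members on both sides. Of 23 genes of aminoacyl-tRNA synthetases and their scaffold partners, 1 of which (Fars2) is mitochondrial, 13 were 2-fold higher and none was lower, with a median of 1.25. Eprs, the fused glutamyl-prolyl synthetase, read 44.6 RPKM in the input, 2.54 in the unbound and 41.1 in the m6A-tagged RNA, a ratio of 3.57. Iars (3.22) and Cars (2.77) followed. The lowest of the 23 was Aimp1 (-0.65), a small non-catalytic scaffold of the synthetase complex. The nucleolar factors of ribosome biogenesis held genes on both sides, with 19 of 33 higher, 4 lower and a median of 1.63. Nolc1 (3.56), Ncl (3.13), which is the nucleolar histone chaperone nucleolin, and Mybbp1a (3.09) were highest. Nop10 read 168 RPKM in the input, 839 in the unbound and 94.2 in the m6A-tagged RNA, and with Nhp2 (-1.56) and Gar1 (-1.23) it was among the lowest. These 3 encode the small core proteins of the H/ACA particles that guide pseudouridine formation. Initiation factors had members on both sides: of 39 compared, 9 were higher and 11 lower, beside 33.7% and 16.9% of all genes. The scaffolds Eif4g1 and Eif3a stood at the top, at 3.30 and 3.29. Eif4ebp1, the small inhibitor of cap binding, stood at -1.71, and Eif5a, named above, was the lowest of the 39 at -2.27. Of 10 elongation and release factors 4 were higher and 4 lower, with Eef2k highest at 2.44 and Eef1b2 lowest at -2.03.

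Genes of the mitochondrial energy system were on the unbound side. Of 79 genes of the respiratory chain and ATP synthase 61 were 2-fold lower and 2 higher, with a median of -1.56. All 11 genes of cytochrome c oxidase, complex IV, were lower, and Cox8a read 411 RPKM in the input, 1651 in the unbound and 222 in the m6A-tagged RNA. In complex I 27 of 37 were lower, with Ndufc1 (-3.01) and Ndufb5 (-2.98) at the low end, and 16 of 18 ATP synthase genes were. The 2 higher genes were Ndufs1, the largest subunit of complex I, at 1.13 and Sdha, the catalytic flavoprotein of complex II, at 1.15, values that turn to -0.0089 and -0.025 under upper-quartile scaling. Atp5b (-0.26) and Atp5a1 (-0.45), the catalytic subunits of ATP synthase, were the least divided of its 18. Mitochondrial ribosomal proteins lay between, with 35 of 78 lower, none higher and a median of -0.83.

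Protein degradation and secretion held further contrasts between partners of 1 complex. The 20S proteasome, the core that cuts proteins, had 8 of 14 genes lower, none higher and a median of -1.36. The 19S cap, which unfolds substrates, had none of 20 lower, 2 higher and a median of 0.01, which is -1.15 under upper-quartile scaling. Psma3 of the core stood at -2.26 and Psmd1, a large scaffold of the cap, at 2.01. Ubiquitin-conjugating enzymes, which are small, had 9 of 24 lower, with Ube2e2 at -1.98. All 3 HECT ligases that passed the minimum, Nedd4 (3.09), Wwp2 (2.65) and Ube3b (2.21), were higher. Among 26 genes of the signal peptidase, the translocon and membrane insertion 14 were lower and 4 higher. Sec61g, the small gamma subunit of the translocon, stood at -2.91 and Dad1, a small subunit of oligosaccharyltransferase, at -2.72, whereas Sec62 stood at 2.82 and Srp72, a large protein of the signal recognition particle, at 2.78. Heat shock and endoplasmic reticulum chaperones were on the m6A-tagged side, 11 of 17 higher and 1 lower. Hsp90aa1, the inducible HSP90, read 131 RPKM in the input, 9.34 in the unbound and 101 in the m6A-tagged RNA. The single lower one was Hspe1 (-2.25), the small mitochondrial co-chaperonin.

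**Figure D3:**
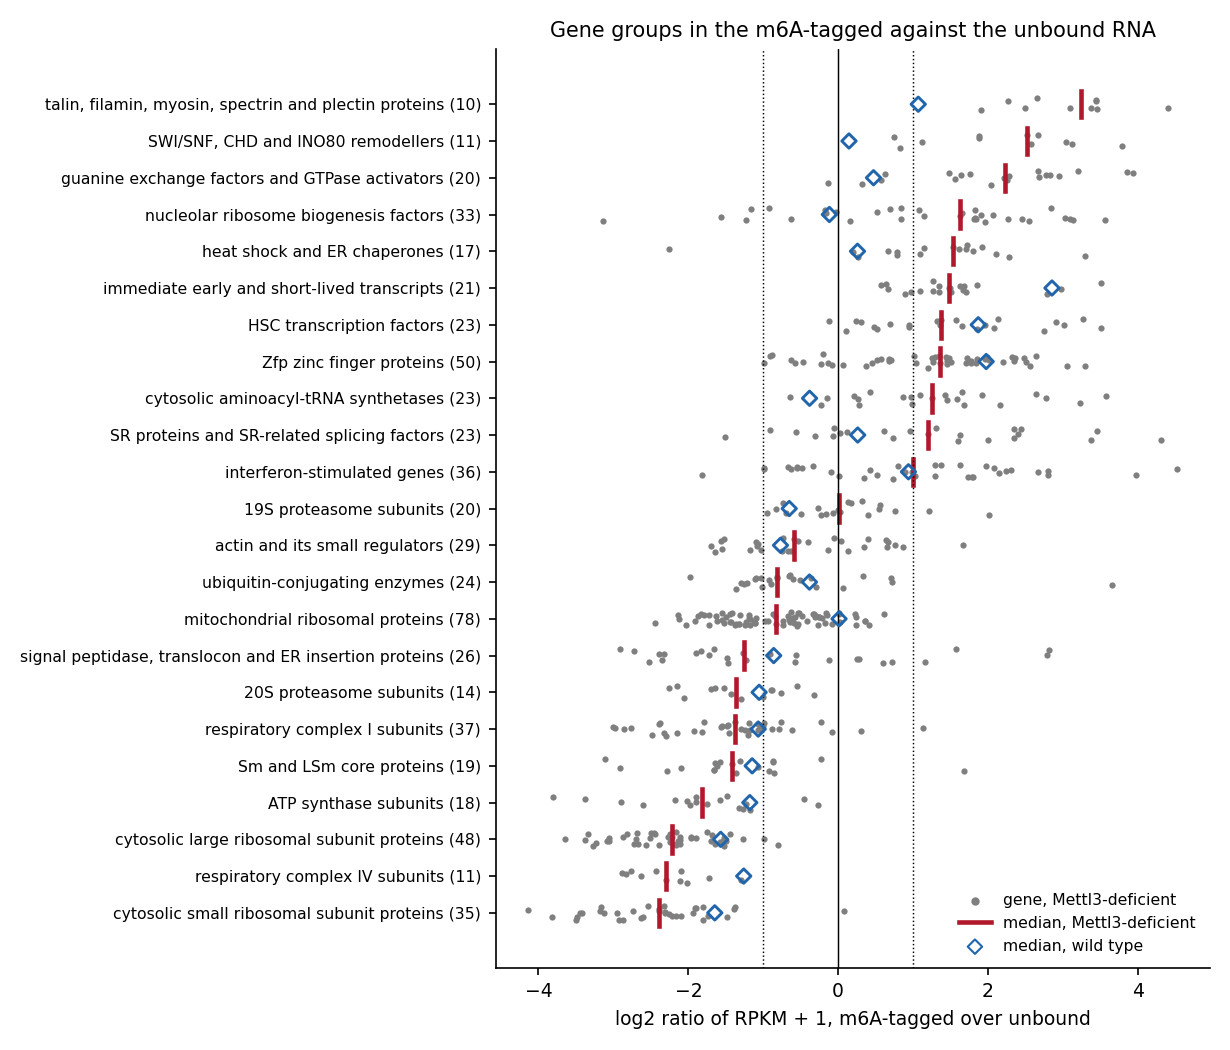
log2 ratio of RPKM + 1, m6A-tagged over unbound, for the members of 23 gene groups (number compared in brackets); grey points are genes and red bars medians in Mettl3-deficient HSCs, blue diamonds are wild-type medians, and dotted lines mark 2-fold. Medians run from -2.39 for the small ribosomal subunit to 3.24 for talin, filamin and myosin genes; under upper-quartile scaling the interferon group (1.00) turns to -0.17 and the 19S group (0.01) to -1.15, and at a minimum of 50 RPKM the SR group (1.20) turns to -0.024.

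Genes of RNA processing and chromatin differed by group. A list of Sm and LSm proteins, which form rings on spliceosomal RNAs, held also Snrnp70, Snrpa, Snrpa1 and Snrpb2, which are specific to the U1 or U2 particle, and had 13 of 19 genes lower and 1 higher, with a median of -1.41. Snrpe read 170 RPKM in the input, 621 in the unbound and 70.6 in the m6A-tagged RNA. The one higher gene was Snrnp70 (1.68), which binds U1 RNA and is no ring protein. SR proteins and their relatives, which choose splice sites, had 12 of 23 higher and 1 lower, with a median of 1.20, though at a minimum of 50 RPKM the median is -0.024. Srrm2, Sfrs18 (now Pnisr, 3.45) and Son (3.38), long proteins of nuclear speckles, led this list. Srrm2 read 46.9 RPKM in the input, 2.44 in the unbound and 67 in the m6A-tagged RNA. Of 11 chromatin remodellers compared 9 were higher and none was lower, with a median of 2.51. They were SWI/SNF genes together with Chd4, Smarca5 and Hells, and no INO80 family gene was among them. Smarca2, the BRM ATPase, read 32, 1.26 and 30.3 RPKM in input, unbound and m6A-tagged RNA. Smarcc2 had a ratio of 3.12 and Chd4, the ATPase of the NuRD complex, 3.04. Sin3a, the scaffold of a histone deacetylase complex, stood at 3.84. Of 16 histone genes 4 were higher and 6 lower, of 19 Mediator subunits 5 and 4, and of 11 Polycomb proteins 4 and 0. A list of 18 genes for TFIID and SAGA had 6 higher and 2 lower. It also held Taf1b, Taf1c, Taf1d and Taf15, which are not core subunits of either. Zinc finger genes named Zfp had 32 of 50 higher and none lower, with a median of 1.35 and Zfp263 highest at 3.30.

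The cytoskeleton held a wide gap between related groups. In a list of talin, filamin, myosin, spectrin and plectin type all 10 genes that passed the minimum were higher, with a median of 3.24. No spectrin or plectin gene was among the 10, which also held Iqgap1, Iqgap2, Actn4 and Lcp1. Tln1, the gene of talin, which links integrins to actin, read 58.7 RPKM in the input, 3.09 in the unbound and 85.7 in the m6A-tagged RNA. Iqgap1 (3.45), a scaffold of Rac and Cdc42 signalling, and the unconventional myosin Myo18a (3.45) followed, and Lcp1, an actin bundler of blood cells, was the least divided at 1.90. Actin and its small regulators lay lower, with 10 of 29 lower and 1 higher and a median of -0.59. Cofilin, the gene Cfl1, read 592 RPKM in the input, 1445 in the unbound and 461 in the m6A-tagged RNA, and Actg1 had a ratio of -1.70. Proteins that switch small GTPases lay on the m6A-tagged side. Among 20 exchange factors and GTPase activators 16 were higher and none was lower, with a median of 2.23, led by Hmha1 (now Arhgap45, 3.94) and Rasa3 (3.86), which restrains Ras and Rap in platelets and blood progenitors. Rac2, a small GTPase of blood cells, stood at -1.80.

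In the HSC lists, transcription factors were mostly on the m6A-tagged side, and surface and adhesion genes had members on both sides. Of 23 HSC transcription factors 14 were higher and none was lower, with a median of 1.38. Egr1, an immediate early factor linked to HSC quiescence, read 10.6 RPKM in the input, 2.04 in the unbound and 33.5 in the m6A-tagged RNA. Erg, an ETS factor needed for HSC upkeep, read 54.7, 3.56 and 43 RPKM, and Sox4 had a ratio of 3.01. Gfi1b (-0.12), Bcl11a (0.11) and Sfpi1 (now Spi1, 0.24), which encodes PU.1, were the least divided. Among 22 surface and adhesion genes 9 were higher and 6 lower, beside 33.7% and 16.9% of all genes compared. The list also holds Cd48, against which the cells were sorted. Kit, the receptor for stem cell factor that served in the sort, read 92.4 RPKM in the input, 9.52 in the unbound and 73.9 in the m6A-tagged RNA. Angpt1 had a ratio of 3.34 and Tek, the receptor of its product, 2.75. Cd81, a tetraspanin, read 377, 1314 and 237 RPKM, and Cd63 (-1.82) and Ly6a (-1.75), the gene of Sca1, lay on the same side.

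Of 21 immediate early and other short-lived transcripts 16 were higher and none was lower, with a median of 1.48. Jun read 46 RPKM in the input, 8.92 in the unbound and 76.7 in the m6A-tagged RNA, and Ppp1r15a, the stress-induced subunit of an eIF2 alpha phosphatase, had a ratio of 2.78. Socs1 (0.57), Ier2 (0.64) and Ier3 (0.67) were the least divided. Among 36 interferon-stimulated genes 18 were higher and 1 lower, with a median of 1.00 that turns to -0.17 under upper-quartile scaling. Gbp7, a guanylate-binding protein, read 56 RPKM in the input, 1.31 in the unbound and 52.3 in the m6A-tagged RNA. Stat2 stood at 3.97 and Eif2ak2, the gene of the double-stranded RNA sensor PKR, at 2.80. Ifi27l2a (-1.82), Psmb8 (-0.99) and Psmb9 (-0.99), the last 2 immunoproteasome subunits, were lowest. Mitosis genes had 9 of 20 higher and 2 lower, beside 33.7% and 16.9% of all genes compared. Smc4 of condensin read 42.9, 1.21 and 28.8 RPKM, and the centromeric histone Cenpa 46.3, 205 and 42.3 RPKM. Of 81 long noncoding RNAs compared 27 were lower and 10 higher, with a median of -0.48. In a list of 12 of them, mostly hosts of small nucleolar RNAs, 8 were lower and 1 higher. Snhg8 had a ratio of -2.37, and Neat1, the nuclear scaffold of paraspeckles, 1.73.

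Some of the contrasts above set short genes against long ones. Median spans were 2944 bases for small ribosomal subunit genes and 60581 for the talin and myosin type. Others did not, with 11999.5 bases for the 20S and 13294 for the 19S proteasome genes. The ratio was followed over the genomic span of 6288 genes together with their level in the input. Span is the distance from the first to the last base of the gene, introns included, and stands in for transcript length, which was not used here. Within every quintile of input level the median ratio was higher in the longest than in the shortest quintile of genes. In the lowest level quintile it went from -0.13 to 1.28, and in the next to highest from -0.73 to 1.16. In the highest level quintile it went from -1.07 to 0.25. Over all levels the difference between the longest and the shortest quintile was 1.80, and without a minimum level it was 0.84. The medians of the shortest and the longest quintile were -0.54 and 1.26 in Mettl3-deficient cells, and -0.15 and 0.39 in wild type. Level counted too: short genes in the highest level quintile had 51.1% of 376 genes lower and 6.65% higher, and short genes in the lowest level quintile had 24.2% of 231 lower and 23.4% higher. Exceptions stood on both sides. The 21 immediate early and other short-lived transcripts had a median span of 3187 bases, and all 21 had a ratio above 0. Among the shortest quintile, with spans up to 5829 bases, Mc5r (4.35), Mir1966 (3.97) and 2510012J08Rik (3.53) were among the highest. Among the longest quintile, with spans from 37715 bases, Uchl3, a ubiquitin hydrolase of small size, read 39.6 RPKM in the input, 144 in the unbound and 20.5 in the m6A-tagged RNA, and Wdr89 (-2.60), Lyrm4 (-2.45) and Immp1l (-2.29) were also low. Ube2e2, with a span of 320722 bases, was lower at -1.98.

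**Figure D4:**
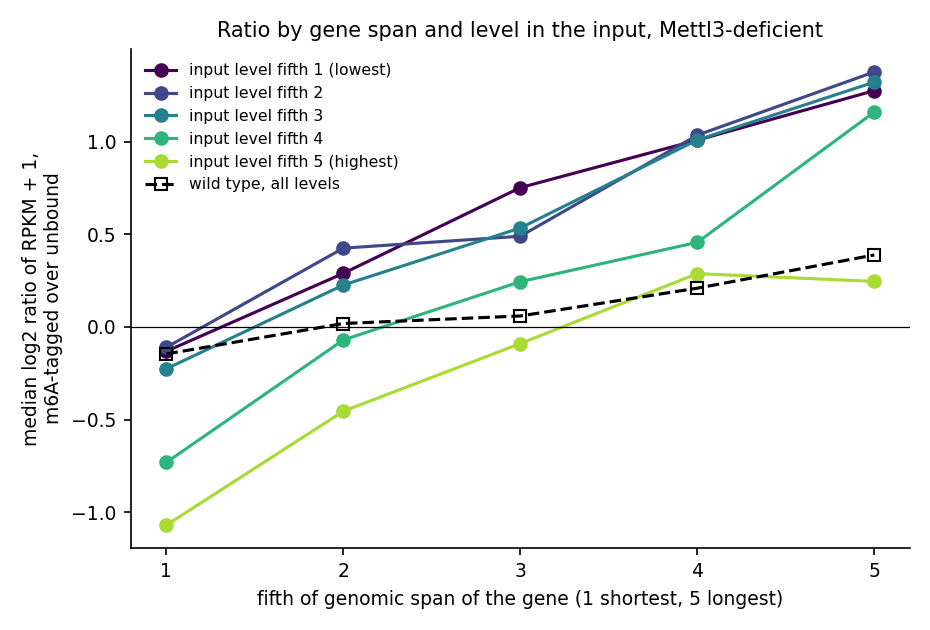
Median log2 ratio of RPKM + 1, m6A-tagged over unbound, in quintiles of genomic span (x axis) for each quintile of level in the Mettl3-deficient input (coloured lines) and, dashed, for all levels in wild type. Medians go from -0.13 to 1.28 in the lowest level quintile and from -1.07 to 0.25 in the highest, and the wild-type line goes from -0.15 to 0.39.

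The start sites of the genes were compared as well, because messages of ribosomal proteins are known for a run of pyrimidines at their cap. RefSeq windows (GRCm38.p6, 250 bases before to 50 after the start) were found for 5100 of the 6295 genes, among them 61 of the 83 ribosomal protein genes. A run of at least 8 bases, each C or T on the gene's strand, lying within 17 bases of the start, was found in 45.9% of the 61 ribosomal protein genes, in 13% of the 5100 and in 13.7% of all 32851 windows. Over quintiles of the ratio, from lowest to highest, the share was 14.5%, 12.2%, 12.2%, 13.9% and 12.3%, and without the ribosomal protein genes it was 12.5% in the lowest. Ribosomal protein genes with such a run had a median ratio of -2.29 (28 genes) and those without one -2.25 (33 genes). Starts were those of the annotation, and no cap was measured. Runs under 8 bases were not counted, so a gene without a run here may still begin with a shorter one. Outside the ribosomal protein genes the share with a run was thus near that of all compared genes at both ends of the ratio. CGGAAG on either strand of the whole window, the core of sites for ETS factors, whose other strand CTTCCG can overlap such a run, was in 41.8%, 38.5%, 38.5%, 37.1% and 36% of windows over the same quintiles and in 16.9% of all windows, and the median GC share lay between 59.3% and 61.3%. The windows below run from 15 bases before to 15 bases from the start of 2 of the lowest and 2 of the highest genes, with a run of 8 or more C or T in capitals, to show that each kind occurs at both ends.
Rplp2, chr7:141447636-141447665, plus strand: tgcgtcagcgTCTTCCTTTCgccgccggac
Rps16, chr7:28350674-28350703, plus strand: cccgcttctgtcgtgacgtagcactcaatg
Tln1, chr4:43562569-43562598, minus strand: cttggagTTCTCTCCaactcggaagtggct
Taok3, chr5:117120114-117120143, plus strand: ggcgcgctctgcgcagtcgggtgcgattgg
Rplp2, which had a ratio of -3.65, and Tln1, with 4.41, both have such a run. Rps16 and Taok3, at the 2 ends of the ratio, both lack one of 8 or more bases.

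Among the 6295 genes were 33 small RNA loci, 11 of miRNAs and 22 of small nucleolar RNAs (snoRNAs). The libraries were made from poly(A)+ RNA, so reads at these loci were counted over a hairpin or snoRNA gene inside longer transcripts and do not measure the mature small RNA. Of the 33 loci 31 lie inside another gene of the table, with which reads may be shared, and 27 of the 31 had a ratio on the same side of 0 as the surrounding gene. Over all genes compared 59.7% had a ratio above 0. The 27 include Mir703, whose surrounding gene 1700007G11Rik read 0.060 RPKM in the unbound and 0.032 in the m6A-tagged RNA. These are the values of a gene without reads, so its side of 0 has no meaning. Mir1966 and its surrounding gene Fam65a had ratios of 3.97 and 3.25, and Mir1896 and Zfp187 2.88 and 2.32. Snord57 and its host Nop56 stood at 2.66 and 1.83, and Snord95 and its host Gnb2l1 at -4.04 and -2.17. Among the exceptions were Snord47 in Gas5, Snord35a in Rpl13a and Snord23 in Gltscr2. Sequences of the mature miRNA were found in RefSeq (GRCm38.p6) for 8 of the 11 miRNA genes, and none of them share a seed. Those of the 5 loci that the values below turn on are given 5′ to 3′, with the seed, bases 2 to 8, in capitals.
mmu-miR-1966-3p: uUUCUGACucaacucucccuuag
mmu-miR-1896: cUCUCUGAuggugggugaggag
mmu-miR-5128: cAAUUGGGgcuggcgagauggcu
mmu-miR-1981-5p: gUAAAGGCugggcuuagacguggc
mmu-miR-682: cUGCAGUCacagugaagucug
In RPKM the loci of the first 3 were on the m6A-tagged side: Mir1966 read 7.13 in the unbound and 127 in the m6A-tagged RNA, Mir1896 0.78 and 12.1, and Mir5128 13.3 and 99.5. The locus of miR-682 read 1965 RPKM in the unbound and 316 in the m6A-tagged RNA, and that of miR-1981 53.5 and 31.1.

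For 16 genes of known transcript length, 14 of them small RNA loci, the mean columns could be taken apart into the reads of the 3 single libraries, which are ordered here from the deepest to the shallowest. Mir1896 had 0, 0 and 0 reads in the unbound libraries and 17, 57 and 12 in the m6A-tagged ones. With 3 reads over the unbound group as a floor, it was at least 17-fold higher in the m6A-tagged RNA after scaling to depth, and the exact 95% lower limit for counting error was 13.5-fold. Its column ratio of 2.88 was 2.05 without the m6A-tagged library of 57 reads. Mir1896 passed the minimum only through the wild-type columns. In the Mettl3-deficient input, unbound and m6A-tagged columns it read 10.5, 0.78 and 12.1 RPKM. Snord37, hosted by the elongation factor gene Eef2, had 0, 2 and 1 reads against 14, 45 and 8, a ratio of 13.3-fold with an exact 95% counting interval of 4.34 to 65.9, which covers counting error only. Its column ratio of 2.10 was 1.23 without the m6A-tagged library of 45 reads. In both genes every m6A-tagged library was above every unbound one for its depth, as 2 of the 16 genes (12.5%) were. Mir1981 was the 1 gene of the 16 (6.25%) with every m6A-tagged library below every unbound one, at 142, 67 and 36 reads in the unbound and 85, 84 and 59 in the m6A-tagged libraries. The other 13 overlapped. Cst7, which encodes a cystatin of leukocytes, had 208, 34 and 0 unbound reads and none in the m6A-tagged libraries, so that 1 unbound library held most of them, and its column ratio of -2.11 was -1.16 without that library. It passed the minimum through the wild-type columns, at 32.7, 52.5 and 39.9 RPKM, and its ratio was -4.73 with 0.1 RPKM added. Mir328, with 0, 31 and 3 reads against 21, 102 and 55, had a column ratio past 2-fold, 1.13, and yet overlapped. That ratio was 2.95 without the unbound library of 31 reads, and it was 0.62 and 0.77 without the unbound libraries of 0 and 3 reads and 0.61 without the m6A-tagged library of 102 reads. With 3 libraries against 3 an exact two-sided permutation test cannot give a p below 0.1.

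**Figure D5:**
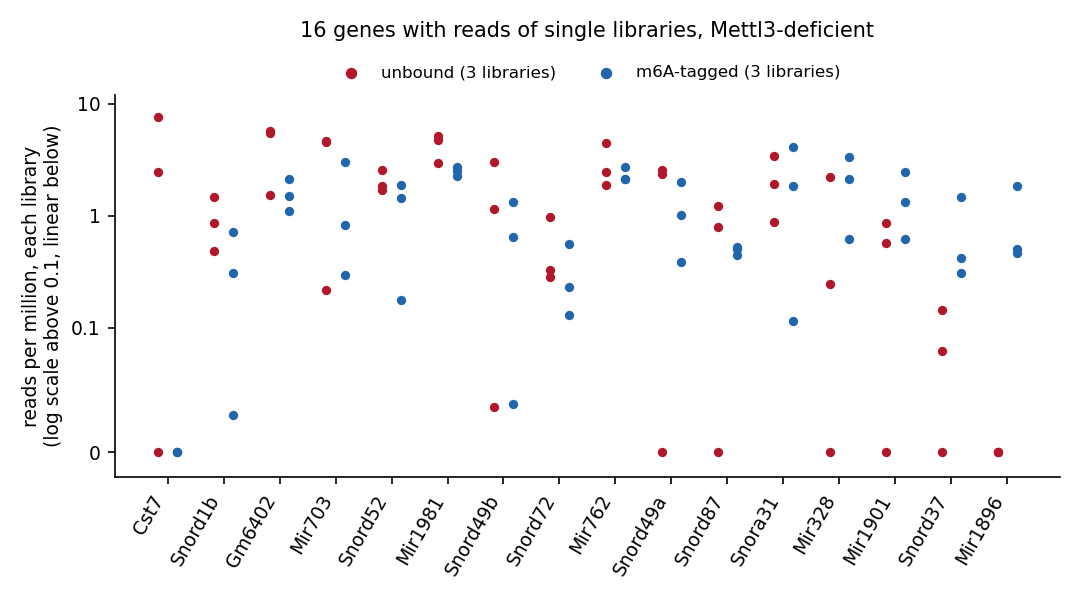
Reads scaled to a depth of 1000000 in each of the 3 unbound (red) and 3 m6A-tagged (blue) Mettl3-deficient libraries for the 16 genes whose single-library reads were recovered, ordered by the ratio of the pooled reads; the y axis is logarithmic above 0.1 and linear below. Mir1896 and Snord37 at the right have all blue points above all red points, Mir1981 has all blue points below, and the libraries of most other genes overlap.

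A note under the authors' deposited table for the Mettl3-deficient cells names 3 genes by their differential expression: Cst7 and Chchd2 for eluted RNA against input but not flow-through against input, and Rps14 for opposite directions in those comparisons. In the columns Chchd2, a mitochondrial regulator of respiration, read 284 RPKM in the input, 750 in the unbound and 92.2 in the m6A-tagged RNA. Rps14 read 1219, 3934 and 433 RPKM, above the input in the unbound and below it in the m6A-tagged RNA. Cst7 read 4.18, 3.47 and 0.034 RPKM.

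The same ratio in wild-type HSCs uses other libraries. There 1982 genes (31.5%) were 2-fold higher in the m6A-tagged RNA and 1218 (19.3%) lower. Of the 2122 genes higher in the Mettl3-deficient cells 1156 (54.5%) were higher in wild type too, which is 58.3% of the wild-type list, while 881 were under 2-fold and 85 were lower. Of the 1061 lower genes 580 (54.7%) were lower in wild type, 47.6% of that list. Over the 6295 genes, Pearson's r between the 2 ratios was 0.56 and Spearman's coefficient 0.58. Genes share transcript length, abundance and base composition in the 2 genotypes and are not independent replicates. With 1 mean column per group, no difference between the genotypes was tested, and the values that follow are a description.

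Groups differed in how far apart the genotypes lay. Genes for ribosomal proteins had a median of -2.27, against -1.60 in wild type, and 72 of the 83 had the lower ratio in the Mettl3-deficient cells. The 10 talin and myosin type genes had medians of 3.24 and 1.07, the remodellers 2.51 and 0.14, the tRNA synthetases 1.25 and -0.38 and the nucleolar factors 1.63 and -0.12. Immediate early transcripts were the reverse, at 1.48 against 2.85 in wild type, as were the Zfp genes at 1.35 and 1.98 and the HSC transcription factors at 1.38 and 1.87. Kit read 9.52 RPKM in the unbound and 73.9 in the m6A-tagged RNA of Mettl3-deficient cells, and 138 and 122 RPKM in wild type. Jun read 8.92 and 76.7 RPKM, and 0.541 and 54.7 RPKM in wild type.

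The largest single differences were again in the unbound columns. Of the 8 genes whose ratio was lowest relative to wild type, D230037D09Rik read 46.6 RPKM in the unbound and 37.5 in the m6A-tagged RNA of Mettl3-deficient cells, and 0.372 and 58.6 RPKM in wild type. Rpp38, a subunit of RNase P, read 32.5 and 36.6 RPKM against 0.222 and 43.5, and Grwd1, a ribosome biogenesis factor, 83.1 and 150 against 1.2 and 124. The remaining ones were 1110002N22Rik, Rtp4, Rnmtl1, Nxt1 and Fam58b. Of the 8 genes whose ratio was highest relative to wild type, Arfgap3, an activator of Arf GTPases at the Golgi, read 1.83 and 18.8 RPKM, and 24.5 and 6.1 RPKM in wild type. Acly, which makes cytosolic acetyl-CoA, read 7.06 and 56.4 RPKM against 105 and 42.6, and Edc4, a scaffold of the decapping complex, 4.27 and 36 against 36.1 and 12.8. Rltpr, Anks3, Atxn2l, Snx9 and Retsat complete the 8. The sum of 3 eosinophil markers lay between 5.97 and 24.5 RPKM over the Mettl3-deficient columns and was 739 RPKM in the wild-type input, and that of the granulocyte and monocyte markers was 927 and 4714 RPKM in the inputs. The part of these cells in the differences between the genotypes was not tested.

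The limits of the rules are visible in the genes beside them. Topbp1, with a mean of 10.003 RPKM, was just inside the minimum and Cpne8, at 9.996, just outside. Zfyve19 (28 RPKM unbound and 57 m6A-tagged) was just past 2-fold higher and Casp12 (8.83 and 18.7) just short of it, and Ebp (95.9 and 47.4) was just past 2-fold lower and Psmb5 (352 and 175) just short.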

How the data were processed

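Per the labels' protocols, poly(A)+ RNA of sorted HSCs was turned into Smart-seq2 libraries read from both ends over 150 bases. The submitters' processing notes name the build mm10 and the tools Picard and edgeR without a role, and no aligner or counter was named in what was read here. The deposited values are RPKM, 1 column per group, which the authors made as the mean of 3 libraries with 1 read added per gene and library, as the steps between the values show. No further normalization was applied. The log2 ratio was taken after adding 1 RPKM, for genes averaging 10 RPKM or more over the 6 columns, joined on gene ID. Because single samples are not in the columns, no fit across genes was made, and genes at least 2-fold apart count as called. Nothing in the labels says that the 3 samples of a group came from separate animals. Library depths follow from the same steps. Reads of single libraries were solved where a transcript length was known, from a RefSeq span without introns or from a column without reads; the method was tested on simulated data. Symbols are those of the table.

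Genes were named by rule: the 15 highest and 15 lowest ratios, the 4 highest and 4 lowest of each quintile of span, the 3 highest and 3 lowest of each list, the 15 most abundant, the m6A genes, those at the borders and the 8 largest genotype differences each way. The small RNA loci with their hosts, the marker genes and the genes of the authors' note are outside it and were chosen after their values were seen. Some genes that the rule names are not reported here. Members and the 57 lists were chosen with earlier results of these data known. The analysis used Python 3.11.15, numpy 2.4.6 and pandas 2.3.3.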

Additional observations from a re-analysis of the deposited data

How the results depend on the processing

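Adding 0.1 RPKM in place of 1 left all counts within 1.5 times but moved 19 of the named genes and 1 list median by more than 1.5-fold. With 5 RPKM added, 50 named genes and 5 list medians moved by as much, the genes 2-fold apart between m6A-tagged and input RNA went from 177 to 100, and lists of at least 5 genes with a median 2-fold higher from 17 to 10. Without a minimum level, 5107 genes were higher and 1257 lower in Mettl3-deficient cells (2122 and 1061 with it) and 5285 were higher in wild type, 5782 differed between unbound and input and 414 between m6A-tagged and input RNA, the median difference between the longest and the shortest quintile fell from 1.80 to 0.84, and the T and NK cell list went from -2.06 (3 genes) to 0.087. At a minimum of 50 RPKM, where fewer genes are compared, 400 were higher in Mettl3-deficient cells and 360 in wild type, 752 and 766 were lower, 1144 differed between unbound and input and 86 between m6A-tagged and input RNA, 4 lists were higher, 14 list medians moved by more than 1.5-fold, and the medians of the SR list (-0.024) and the nuclear pore list (-0.042) turned. Median-ratio scaling left 10 lists higher. Upper-quartile scaling gave 812 higher and 2812 lower genes, and 1051 and 3136 in wild type, with 3 lists higher and 29 lower (10 as deposited). It turned the medians of the hnRNP (-0.15), nuclear pore (-0.074), m6A (-0.018), interferon (-0.17) and megakaryocyte (-0.10) lists and the ratios of Hnrnpa2b1 (-0.070), Sdha (-0.025), Zfyve19 (-0.15) and Ndufs1 (-0.0089). It takes its quartile over the whole table, many of whose genes have few reads; the version over the compared genes, and every setting for the input column, the start-site windows and the wild-type trend, were chosen after seeing the data.

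Leaving out 1 library at a time could be done only where single-library reads were solved, with ratios of 2.05 to 3.17 for Mir1896, 1.23 to 2.43 for Snord37, -0.97 to -0.61 for Mir1981, -2.58 to -1.16 for Cst7 and 0.61 to 2.95 for Mir328. For all other results it was not run. No paired analysis was possible because the deposited columns are means that carry no replicate numbers. Without replicate error, a 2-fold difference in a gene with few reads in either column cannot be told apart from sampling, and the length of a transcript, its level and its binding to the antibody were not separated.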
